A study of Mus musculus with 35 samples.

Results

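Levels of 10 genes of the FoxO and autophagy programme were followed in mouse quadriceps, the large extensor muscle of the thigh, after loss or blockade of myostatin. They were the FoxO transcription factors Foxo1, Foxo3 and Foxo4, the transcription factors Klf15 and Nfe2l1, the autophagy genes Ulk1, Map1lc3b and Gabarapl1, and the cargo adaptors Bnip3 and Sqstm1. Each was the row of the deposited array table annotated with exactly that symbol, and where a gene had several rows the row with the highest mean over the 35 arrays was kept. All 10 were measured, out of 19938 genes with 1 annotated symbol. Each array held RNA of 1 mouse, and all mice were 2-month-old females in 4 classes: control mice, myostatin-null mice (called Mstn-null here), mice given 1 dose of ActRIIB-Fc and mice given 4 doses of it. Experiment 1 used 3 mice of each class, and experiment 2, run independently, used 8 Mstn-null mice and 5 of each other class. The sources used here name no strain, null allele, dose amount or dose spacing, nor what control mice received. No Cre or transgene is named, so the Mstn-null class is described only as lacking myostatin.

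Myostatin is a secreted brake on muscle growth that signals through activin type II receptors, and ActRIIB-Fc is a soluble form of such a receptor joined to an antibody Fc part, which captures myostatin and related ligands. FoxO factors are transcription factors that Akt phosphorylates and keeps out of the nucleus. When they are active in muscle, as in fasting or denervation, they raise genes of protein breakdown, among them the ubiquitin ligases Fbxo32 and Trim63 and several autophagy genes. In autophagy, a double membrane grows around cell contents after the ULK1 kinase complex starts it, ATG8 proteins such as LC3B and GABARAPL1 are attached to that membrane, and adaptors such as p62 and BNIP3 tie cargo to them.

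The values are log2 intensities, so a difference of 1 is a doubling, and they were compared only within an experiment because array medians ran from 4.39 to 4.52 in experiment 1 and from 6.06 to 6.27 in experiment 2. Skeletal muscle fibre genes marked every array as muscle: the mean of 12 such genes ran from 11.04 to 11.35 in the first experiment and from 12.62 to 13.28 in the second. In experiment 2, Mstn itself ran from 9.84 to 10.2 in controls and from 6.29 to 7.84 in Mstn-null mice. In experiment 1 its ranges were 6.77 to 7.68 and 5.78 to 6.69, so the classes did not overlap in either. The sources used here do not say whether the Mstn probes lie in the deleted part, and probes outside it would check nothing. The arrays of Mstn-null mice also had a narrower spread of values. Their interquartile range over genes was 2.28 ± 0.12 (SD, n = 8) in experiment 2 against 2.56 ± 0.06 (SD, n = 5) in controls, without overlap, and replicates 6, 7 and 8 were the narrowest at 2.14, 2.15 and 2.19. For each of the 10 genes that passed in Mstn-null mice, and for the gene lists, values are therefore also given with that range held in the fit and without these 3 arrays, called the narrow arrays here. The fit estimates the spread of a gene from all 4 classes, so these arrays also bear on the p-values of the dose comparisons. Some 4-dose arrays were narrow as well: replicate 3 was at 2.22 in experiment 1, the lowest there, and at 2.26 in experiment 2. In whole muscle, fewer cells of a type and less RNA per cell cannot be told apart.

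The RefSeq promoter table of the mouse assembly GRCm38.p6 held 9 of the 10 genes in 13 windows of 300 bases, from 250 before to 50 after an annotated start. Of these windows 5 were of Nfe2l1, and some of those overlap, so the 13 are not independent. The forkhead element GTAAACA, searched on both strands, was in 0 of the 13 windows and in 3.65% of all 32851 windows of the table. So few windows cannot set 0 apart from that share. Only this exact run of letters was searched, and forkhead elements spelled otherwise were not. The E-box CACGTG, a palindrome that TFEB-family and other factors bind, was in windows of Klf15 and Bnip3 and in 7.15% of all windows. The 250 bases before the start are shown for these 2 genes, which hold a match, and for Gabarapl1, which was lower in both the Mstn-null and the 4-dose class and holds neither exact run. Capitals mark CACGTG. In Klf15 it begins 228 and 172 bases before the start, and the last 3 capitals open a match that runs across the start. In Bnip3 it begins 108 bases before the start.
Klf15, chr6:90462326-90462575, plus strand: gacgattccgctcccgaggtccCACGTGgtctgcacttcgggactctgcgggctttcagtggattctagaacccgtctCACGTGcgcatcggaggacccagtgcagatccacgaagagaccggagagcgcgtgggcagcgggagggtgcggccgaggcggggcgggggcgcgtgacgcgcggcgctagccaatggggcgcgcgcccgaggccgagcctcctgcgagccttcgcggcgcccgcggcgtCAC
Bnip3, chr7:138909507-138909756, minus strand: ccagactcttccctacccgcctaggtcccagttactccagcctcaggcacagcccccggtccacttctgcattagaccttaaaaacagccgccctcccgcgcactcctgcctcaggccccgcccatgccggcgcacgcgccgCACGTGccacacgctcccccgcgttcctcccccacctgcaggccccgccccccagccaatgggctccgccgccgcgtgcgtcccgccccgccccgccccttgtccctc
Gabarapl1, chr6:129532942-129533191, plus strand: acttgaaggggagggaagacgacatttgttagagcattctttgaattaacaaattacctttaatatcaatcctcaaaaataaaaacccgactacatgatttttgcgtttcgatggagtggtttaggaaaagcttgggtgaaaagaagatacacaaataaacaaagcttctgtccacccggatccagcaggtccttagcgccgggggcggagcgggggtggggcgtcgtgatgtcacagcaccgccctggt
A match is a run of letters and not a measured site, and no match says only that these letters are not in the window.

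Of the 10 genes, 6 were lower in Mstn-null mice than in controls, 1 after 1 dose and 2 after 4 doses, and 0 were higher in any of the 3 comparisons (limma, 1 fit over the 35 arrays with terms for class and experiment, Benjamini-Hochberg adjusted p under 0.05 over 19938 genes, called "passed the test" here). Lower in Mstn-null mice were Foxo4, Klf15, Nfe2l1, Map1lc3b, Gabarapl1 and Bnip3. Lower after 1 dose was Foxo1, and lower after 4 doses were Klf15 and Gabarapl1. The 3 comparisons share the same control arrays. Lack of overlap with controls within 1 experiment, given for single genes below, has no share of all genes beside it. It describes those mice and is not a test. The background differed widely: among all genes, 41.8% passed in either direction and 16.4% were lower in Mstn-null mice, 1.11% and 0.572% after 1 dose, and 3.14% and 1.23% after 4 doses. The median log2 change of the 10 genes was -0.36, -0.25 and -0.27 in that order, beside 0.09, 0.02 and 0.02 over all genes. Estimates were below 0 for 8, 10 and 9 of the 10 genes, beside 34.8%, 41.9% and 43.2% of all genes. The 10 genes are bright, and genes of their level also tended to be below 0. The median change of the bright bins that hold them, defined below, was -0.07 to -0.19 in Mstn-null mice. It was -0.02 to -0.05 after 1 dose and -0.04 to -0.05 after 4 doses.

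**Figure D1:**
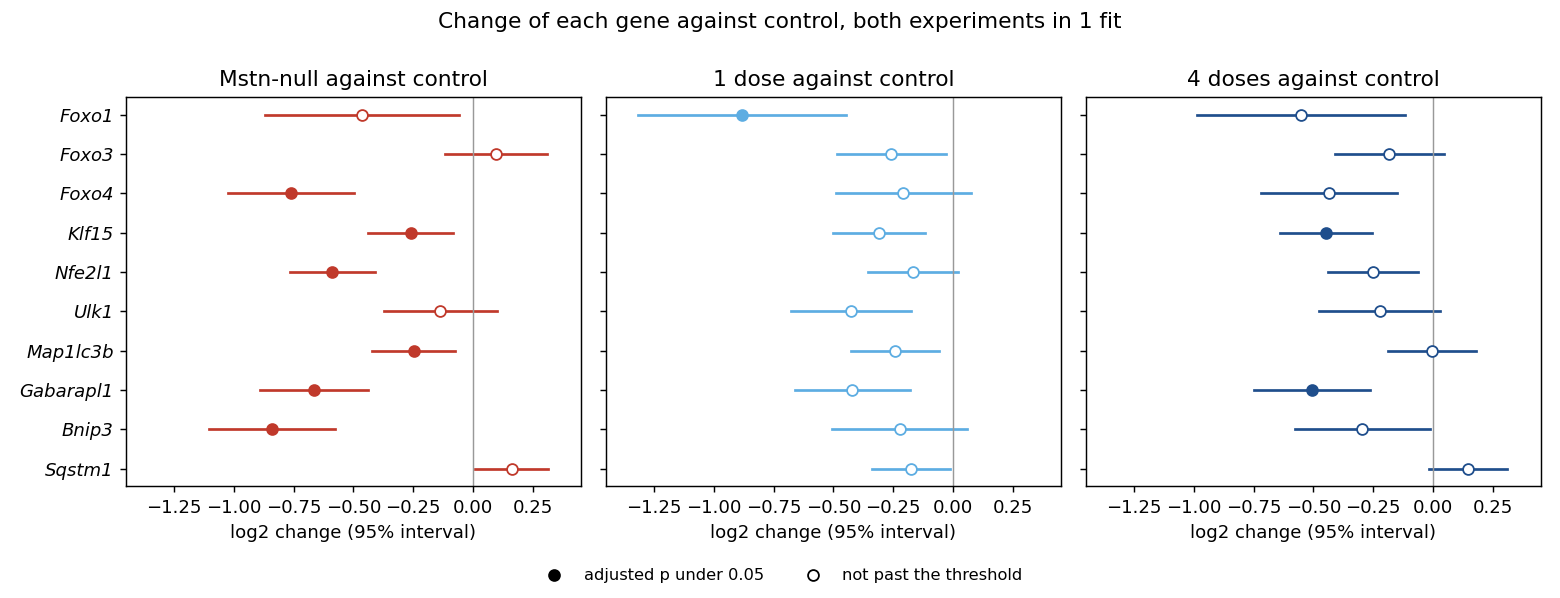
Log2 change against control (horizontal axis) of each of the 10 genes in 3 comparisons, with 95% intervals as bars; filled points passed the test and open points did not. Bnip3 has the lowest estimate in Mstn-null mice, -0.84, and Foxo1 the lowest after 1 dose, -0.88, while Sqstm1 is above 0 in Mstn-null mice and after 4 doses and below 0 after 1 dose.

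Foxo1, the FoxO factor that fasting raises in muscle, passed the test after 1 dose. In experiment 1 its log2 level was 7.41, 7.34 and 7.69 in controls and 6.11, 6.70 and 6.34 after 1 dose. In experiment 2 it was 9.33, 9.11, 9.44, 9.49 and 9.73 in controls and 8.05, 8.27, 8.60, 9.12 and 9.29 after 1 dose. All 3 one-dose mice of experiment 1 lay below every control, whereas 2 of the 5 in experiment 2 overlapped the control range. Over both experiments Foxo1 was 1.85-fold lower after 1 dose, a log2 change of -0.88 ± 0.21 (SE, adjusted p = 0.0267). That call rested on single arrays: it missed the threshold without any one of 7 arrays, namely 1-dose replicates 1 and 3 of experiment 1, 1-dose replicates 1 and 2 of experiment 2 and control replicates 3, 4 and 5 of experiment 2. The adjusted p without each ran up to 0.0759. It was also 0.0674 after renewed quantile normalization, and 0.166 in experiment 2 alone.

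After 4 doses Foxo1 was at 7.62, 7.50 and 7.44 in experiment 1, within the control range, and at 7.97, 8.02, 8.55, 8.995 and 9.03 in experiment 2, below every control. The fitted change over both was -0.55 (95% interval -0.99 to -0.12) and did not pass the test (adjusted p = 0.185). The 4-dose and 1-dose mice differed by 1.14 in experiment 1, where all 4-dose values were above all 1-dose values (adjusted p = 0.0116, among 0.241% of genes that passed in that experiment), and by -0.15 in experiment 2. The test of the difference between the experiments gave -1.29 ± 0.39 (SE) with an adjusted p of 0.263. In Mstn-null mice Foxo1 was 7.10, 7.27 and 7.59 in experiment 1. In experiment 2 it ran from 7.98 over a median of 9.03 to 9.31, with 3 of 8 mice at 7.98, 8.31 and 8.31 and 5 from 9.02 to 9.31. The change of -0.46 (95% interval -0.87 to -0.06) did not pass (adjusted p = 0.0605). It was -0.59 without the 3 narrow arrays, which passed (adjusted p = 0.0406), and -0.56 with the array range in the fit (adjusted p = 0.25).

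**Figure D2:**
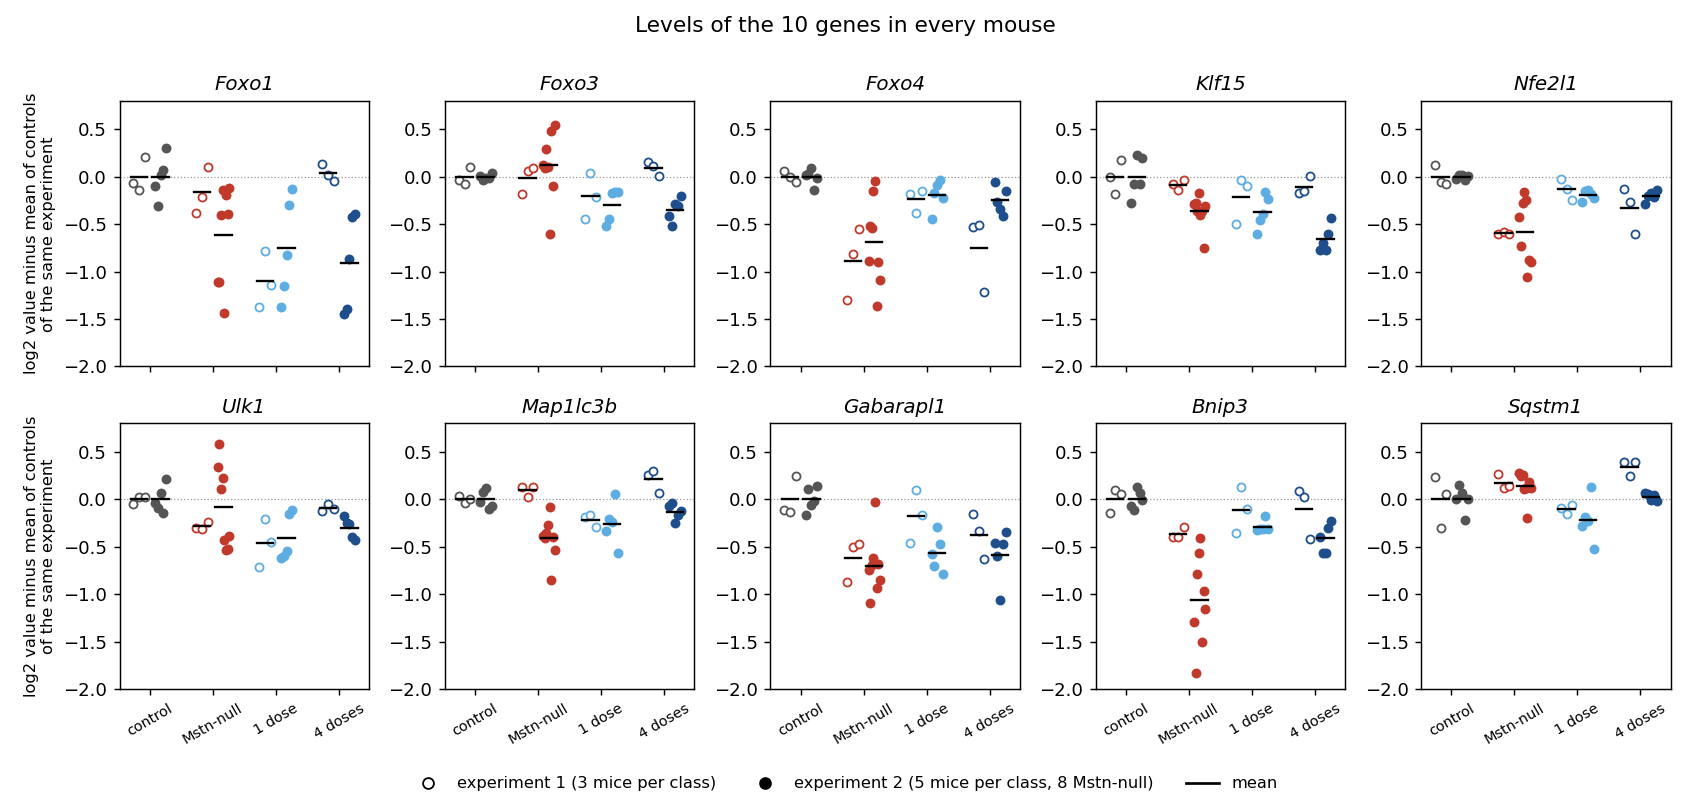
Log2 level of each gene in every mouse, minus the mean of the controls of the same experiment, by class; open points are experiment 1, filled points experiment 2, and bars are means. Foxo1 drops in 3 of 3 one-dose mice of experiment 1 and spreads over more than 1 log2 unit within each non-control class of experiment 2, and Bnip3 of Mstn-null mice spreads similarly.

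Foxo4, the FoxO factor encoded on the X chromosome, was lower in Mstn-null mice in both experiments. Controls were at 7.82, 7.77 and 7.71 and Mstn-null mice at 6.46, 6.95 and 7.22 in experiment 1. In experiment 2 controls were at 8.63, 8.63, 8.69, 8.46 and 8.59, and Mstn-null mice ran from 7.24 over a median of 7.89 to 8.55. The groups did not overlap in experiment 1, and in experiment 2 only Mstn-null replicate 5 lay within the control range. The change was -0.76 ± 0.13 (SE), 1.69-fold lower, with an adjusted p of 5.33e-05, -0.60 (adjusted p = 0.000697) without the narrow arrays and -0.41 (adjusted p = 0.107) with the array range in the fit. After 4 doses Foxo4 was 7.23, 7.26 and 6.55 in experiment 1, below all controls, and 8.54, 8.34, 8.26, 8.19 and 8.45 in experiment 2, where 1 mouse reached the control range. The change of -0.43 (95% interval -0.72 to -0.15) did not pass (adjusted p = 0.0852) and passed at 0.0329 without the 3 narrow Mstn-null arrays. After 1 dose it was -0.21 (95% interval -0.49 to 0.07).

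Foxo3, the family member best known for driving autophagy genes in muscle, passed no test against control. Its change was 0.10 (95% interval -0.12 to 0.31) in Mstn-null mice, -0.26 (-0.49 to -0.03) after 1 dose and -0.18 (-0.41 to 0.05) after 4 doses. In experiment 2 controls were tight at 8.49, 8.45, 8.47, 8.47 and 8.52, and every 1-dose and 4-dose mouse lay below them, from 7.97 to 8.32 and from 7.96 to 8.28. In experiment 1 both treated classes overlapped the controls. The 8 Mstn-null mice of experiment 2 ran from 7.88 to 9.03, on both sides of the controls.

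Klf15, a glucocorticoid-induced factor that raises amino acid breakdown in muscle and whose promoter is shown above, was lower after 4 doses and in Mstn-null mice. In experiment 2 controls were at 8.82, 9.03, 9.32, 9.02 and 9.30, and 4-dose mice at 8.33, 8.40, 8.32, 8.49 and 8.66, all below. In experiment 1 the 4-dose values of 7.24, 7.27 and 7.42 lay within the control range of 7.24 to 7.60. The change over both was -0.45 ± 0.09 (SE), 1.36-fold lower (adjusted p = 0.00339). It passed without each of the 35 arrays in turn, and was -0.66 (adjusted p = 0.000874) in experiment 2 and -0.10 (adjusted p = 0.852) in experiment 1. The difference between the experiments was -0.55 ± 0.18 (SE, limma unadjusted p = 0.00376, adjusted p = 0.354). In Mstn-null mice of experiment 2 it ran from 8.35 over a median of 8.76 to 8.93, overlapping the lowest control. The change of -0.26 ± 0.09 (SE, adjusted p = 0.0184) was lost without either of control replicates 3 and 5 of experiment 2 (adjusted p = 0.056 each), under quantile normalization (-0.06, adjusted p = 0.68), with the array range in the fit (-0.23, adjusted p = 0.277), without the narrow arrays (-0.22, adjusted p = 0.0717) and in experiment 1 alone (-0.08, adjusted p = 0.809). After 1 dose Klf15 was -0.31 (95% interval -0.50 to -0.12, adjusted p = 0.113).

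Nfe2l1, which encodes NRF1, the factor that raises proteasome subunit genes when proteasome activity falls, was lower in every Mstn-null mouse than in every control of its experiment. Controls were at 9.41, 9.22 and 9.20 and Mstn-null mice at 8.67, 8.70 and 8.68 in experiment 1. In experiment 2 controls were at 10.58, 10.62, 10.62, 10.57 and 10.62, and Mstn-null mice ran from 9.54 over a median of 10.03 to 10.44. The change was -0.59 ± 0.09 (SE), 1.503-fold lower (adjusted p = 8.55e-06), with the same -0.59 in experiment 1 and -0.58 in experiment 2. With the array range over genes in the fit it was -0.37 (adjusted p = 0.0295), and without the narrow arrays -0.45 (adjusted p = 5.22e-05). After 4 doses it was 9.14, 9.01 and 8.68 in experiment 1 and 10.31, 10.40, 10.43, 10.39 and 10.46 in experiment 2, also below every control. The change of -0.25 (95% interval -0.44 to -0.06) did not pass (adjusted p = 0.158) and passed at 0.0361 without the 3 narrow Mstn-null arrays. After 1 dose it was -0.17 (95% interval -0.36 to 0.02).

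Ulk1, the kinase that starts autophagosome formation, passed no test against control. After 1 dose it was 6.33, 6.84 and 6.59 in experiment 1, below the controls at 6.998, 7.07 and 7.07. In experiment 2 it was 7.75, 7.77, 7.83, 8.22 and 8.26 after 1 dose, against 8.33, 8.28, 8.44, 8.23 and 8.59, with 1 mouse in the control range. The change was -0.43 (95% interval -0.68 to -0.17, adjusted p = 0.0919), and passed at 0.0471 without the 3 narrow Mstn-null arrays. It was -0.14 (-0.37 to 0.10) in Mstn-null mice, where experiment 2 ran from 7.84 to 8.95, and -0.22 (-0.48 to 0.03) after 4 doses.

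Gabarapl1, an ATG8-family gene that FoxO factors are known to raise in muscle, was lower in Mstn-null mice and after 4 doses. In experiment 1 controls were at 6.50, 6.47 and 6.85, Mstn-null mice at 5.73, 6.099 and 6.13 and 4-dose mice at 6.45, 6.27 and 5.98. In experiment 2 controls were at 8.04, 8.31, 8.14, 8.19 and 8.34, 4-dose mice at 7.74, 7.61, 7.14, 7.73 and 7.86, and Mstn-null mice ran from 7.11 over a median of 7.48 to 8.17. All 4-dose mice of both experiments lay below their controls, and of the Mstn-null mice only replicate 5 of experiment 2 reached the control range. The Mstn-null change was -0.67 ± 0.11 (SE), 1.59-fold lower (adjusted p = 3.91e-05), -0.63 (adjusted p = 0.000504) without the narrow arrays and -0.37 (adjusted p = 0.0856) with the array range in the fit. The 4-dose change was -0.51 ± 0.12 (SE), 1.42-fold lower (adjusted p = 0.00939), and it passed without each of the 35 arrays in turn. After 1 dose the values were 6.14, 6.71 and 6.44, with 1 of 3 mice in the control range of experiment 1, and 7.62, 7.50, 7.91, 7.73 and 7.41 in experiment 2, below every control. The 1-dose change was -0.42 (95% interval -0.66 to -0.18, adjusted p = 0.0753).

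Map1lc3b, which encodes LC3B, the ATG8 protein used as the standard mark of autophagosomes, was lower in Mstn-null mice over both experiments, with estimates of opposite sign in the 2. Mstn-null mice of experiment 2 ran from 9.27 over a median of 9.74 to 10.05, against controls at 10.10, 10.20, 10.25, 10.02 and 10.06. Mstn-null mice of experiment 1 were at 8.67, 8.58 and 8.68 against 8.58, 8.51 and 8.55, so the estimate there was 0.09 and in experiment 2 -0.41. The difference between the experiments was -0.50 ± 0.16 (SE, adjusted p = 0.0733). Over both, the change was -0.25 ± 0.08 (SE, adjusted p = 0.0194), and a second row of the gene gave -0.23 (adjusted p = 0.0342). The call did not hold under quantile normalization (-0.01, adjusted p = 0.943), with the array range in the fit (-0.12, adjusted p = 0.586) or without the 3 narrow arrays (-0.15, adjusted p = 0.133). Its change was -0.24 (95% interval -0.43 to -0.06) after 1 dose and 0.00 (-0.19 to 0.18) after 4 doses. The 4-dose estimate was 0.21 in experiment 1, where all 4-dose mice lay above the controls, and -0.13 in experiment 2, where they overlapped. The test of that difference gave an adjusted p of 0.662.

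Bnip3, an outer mitochondrial membrane protein that marks mitochondria for autophagy, had the largest Mstn-null change of the 10 genes on the row kept. In experiment 1 controls were at 8.61, 8.86 and 8.81 and Mstn-null mice at 8.36, 8.36 and 8.47. Controls of experiment 2 were at 11.24, 11.20, 11.44, 11.38 and 11.30, and Mstn-null mice ran from 9.48 over a median of 10.25 to 10.91. No Mstn-null mouse reached the control range in either experiment. The change was -0.84 ± 0.13 (SE), 1.79-fold lower (adjusted p = 1.43e-05), -0.36 in experiment 1 and -1.06 in experiment 2, and the test of that difference gave an adjusted p of 0.117. A second row of the gene gave -0.67 (adjusted p = 9.49e-05), a smaller change than the -0.76 of Foxo4. With the array range over genes in the fit it was -0.56 (adjusted p = 0.0345), and without the narrow arrays -0.75 (adjusted p = 0.000238). All treated mice of experiment 2 lay below the controls, from 10.99 to 11.14 after 1 dose and from 10.75 to 11.09 after 4 doses, while those of experiment 1 overlapped. Neither change passed the test, at -0.22 (95% interval -0.50 to 0.06) and -0.30 (-0.58 to -0.01).

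Sqstm1, which encodes the cargo adaptor p62, passed no test against control. Its change was 0.16 (95% interval 0.01 to 0.31, adjusted p = 0.0792) in Mstn-null mice, -0.18 (-0.34 to -0.01) after 1 dose and 0.15 (-0.02 to 0.31) after 4 doses. Controls of experiment 2 were at 11.57, 11.71, 11.63, 11.34 and 11.57, and Mstn-null mice ran from 11.37 over a median of 11.71 to 11.85, with broad overlap. In experiment 1 controls were at 9.917, 9.38 and 9.74, 4-dose mice at 10.07, 9.921 and 10.08 and 1-dose mice at 9.59, 9.52 and 9.62. The 4-dose mice thus lay above all 1-dose mice and, by a small margin, above all controls. Their estimate against control was 0.34 in experiment 1 (limma adjusted p = 0.322) and 0.03 in experiment 2. Under quantile normalization Sqstm1 was higher in Mstn-null mice (0.38, adjusted p = 0.000518), so that under this scaling 4 of the 10 genes were lower and 1 higher, against 6 and 0 on the deposited scale.

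**Figure D3:**
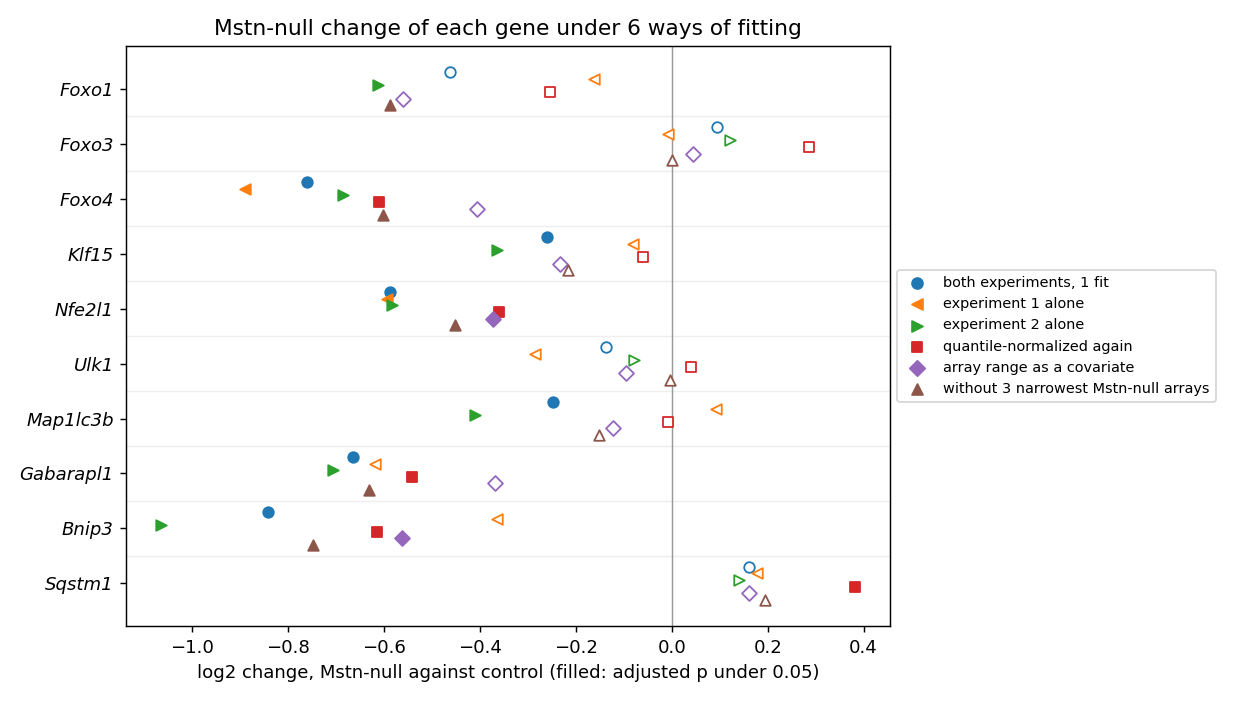
Log2 change of each gene in Mstn-null mice against control (horizontal axis) under 6 ways of fitting; filled symbols have an adjusted p under 0.05. Foxo4, Nfe2l1, Gabarapl1 and Bnip3 stay below 0 under all 6, whereas Map1lc3b lies at 0.09 in experiment 1 alone and Klf15 and Map1lc3b lie near 0 after renewed quantile normalization.

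Taken by experiment, 2 of the 10 genes passed in Mstn-null mice of experiment 1 alone (Foxo4 and Nfe2l1; 2.39% of all genes) and 7 in experiment 2 alone (43.9% of all genes). After 1 dose 1 gene passed in experiment 1 (0.0251% of all genes) and 0 in experiment 2 (1.23%). After 4 doses 0 passed in experiment 1 (0.266%) and 2 in experiment 2 (2.62%), namely Klf15 and Gabarapl1. Nfe2l1 and Bnip3 were below all controls in both experiments in Mstn-null mice, as were 2.57% of all genes, and Nfe2l1 and Gabarapl1 were so after 4 doses, as were 0.808%. After 1 dose 0 of the 10 were, beside 0.391% of all genes. The share of all genes below all controls in a single experiment was not computed. The difference between experiments passed the limma test for 0 of the 10 genes in each comparison, with 2, 0 and 3 at an unadjusted p under 0.05. Those were Map1lc3b and Bnip3 in Mstn-null mice and Foxo1, Klf15 and Map1lc3b after 4 doses. Among all genes the difference between experiments passed for 1.68%, 0% and 0.00502% in the Mstn-null, 1-dose and 4-dose comparisons.

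Genes of high signal moved down more often in Mstn-null mice, so each gene was also set beside the genes of its own level. Genes were ranked by mean log2 level and split into 10 equal bins of 1993 or 1994 genes, with bin 10 the brightest, which group array signals and not transcript amounts. Gabarapl1 fell in bin 8, Foxo1, Foxo3, Foxo4, Klf15 and Ulk1 in bin 9, and Nfe2l1, Map1lc3b, Bnip3 and Sqstm1 in bin 10. In Mstn-null mice 31.0%, 38.6% and 43.6% of the genes of bins 8, 9 and 10 were lower, against 0.602% in bin 1, and the median change of these 3 bins was -0.07, -0.15 and -0.19. Of the genes of the same bin, 7.02% had a change at or below that of Gabarapl1, 7.27% at or below Bnip3, 7.62% at or below Foxo4, 18.4% at or below Nfe2l1, 37.1% at or below Klf15 and 44.0% at or below Map1lc3b. The last 3 thus lay inside the middle of their bins, between their 10th and 90th percentiles.

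After 1 dose 1.40% of bin 9 and 1.35% of bin 10 were lower, and 0.502% of bin 9 lay at or below Foxo1, 2.46% at or below Ulk1 and 4.61% at or below Klf15, with 1.35% of bin 8 at or below Gabarapl1. After 4 doses the shares were 1.91% for Foxo1, 3.36% for Klf15, 3.86% for Foxo4 and 1.76% for Gabarapl1. Below the 10th percentile of their bins lay 3 of the 10 genes in Mstn-null mice, 6 after 1 dose and 5 after 4 doses, and 0 lay above the 90th in any. Because the genes were chosen with results of these data known, these shares are descriptions.

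**Figure D4:**
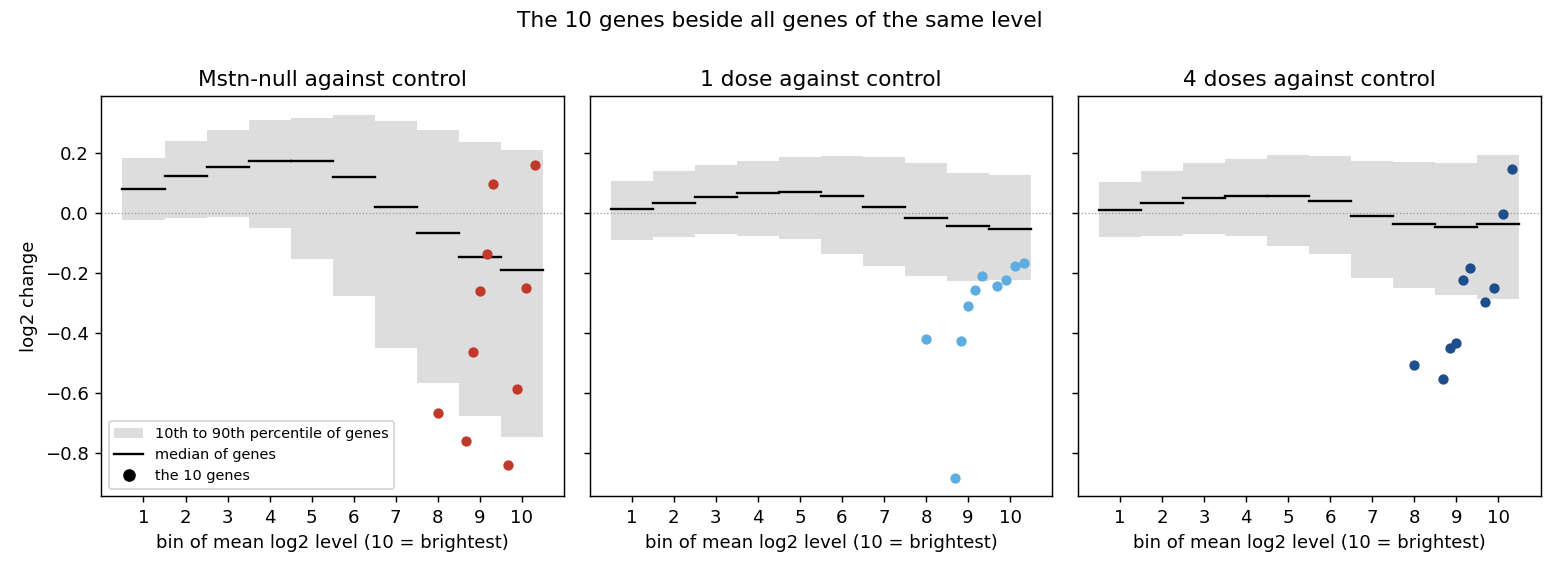
Log2 change against control (vertical axis) by bin of mean level (horizontal axis, 10 the brightest), with the median of all genes of a bin as a line, their 10th to 90th percentile in grey and the 10 genes as points. The grey band widens downward to the right in Mstn-null mice, where 3 points lie under it, and is narrower after 1 and 4 doses, where 6 and 5 points lie under it.

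Between 4 doses and 1 dose 0 of the 10 genes passed the test, beside 0.321% of all genes, with 2 at an unadjusted p under 0.05 in the limma fit. Those were Sqstm1, higher by 0.32 after 4 doses (95% interval 0.16 to 0.49, adjusted p = 0.0675), and Map1lc3b, higher by 0.24 (0.05 to 0.42, adjusted p = 0.403). For the others the interval of the difference reached as far as 0.77 for Foxo1 and -0.51 for Foxo4. Sqstm1 passed this test with the array range in the fit.

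Compared with Mstn-null mice, 5 of the 10 genes differed after 1 dose (16.8% of all genes) and 3 after 4 doses (20.2% of all genes). Bins 8, 9 and 10, which hold the 10 genes, had more such genes. After 1 dose 423, 538 and 651 of 1994 genes were higher there and 111, 141 and 139 lower. After 4 doses 389, 528 and 694 were higher and 162, 143 and 115 lower. The bin medians were 0.06, 0.10 and 0.15 after 1 dose and 0.05, 0.10 and 0.18 after 4 doses. The changes below are to be read against these. Bnip3 was higher by 0.62 ± 0.13 (SE, adjusted p = 0.00123) after 1 dose and by 0.55 ± 0.13 (SE, adjusted p = 0.0042) after 4 doses, that is 1.54-fold and 1.46-fold. Nfe2l1 was higher by 0.42 (adjusted p = 0.00111) and 0.34 (adjusted p = 0.00751). Foxo4 was higher by 0.55 (adjusted p = 0.00338) after 1 dose, and its 0.33 after 4 doses did not pass (adjusted p = 0.0693). Map1lc3b was higher by 0.24 after 4 doses (adjusted p = 0.0387), a call lost without any one of 11 arrays. Foxo3 and Sqstm1 were lower after 1 dose than in Mstn-null mice, at -0.35 (adjusted p = 0.0178) and -0.34 (adjusted p = 0.00211). With the array range over genes in the fit, 1 of the 5 calls after 1 dose held, that of Sqstm1, and 0 of the 3 after 4 doses. Without the 3 narrow arrays Bnip3 alone passed after 4 doses (0.45, adjusted p = 0.0345). Under quantile normalization the split after 4 doses turned from 0 lower and 3 higher to 2 lower, Foxo3 and Klf15, and 1 higher, Bnip3.

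The known FoxO targets outside the 10 genes included lower genes in each class. Of 19 measured, 10 were lower and 1 higher in Mstn-null mice, 3 lower and 0 higher after 1 dose, and 2 lower and 0 higher after 4 doses, with list medians of -0.31, -0.17 and -0.17. Over all genes 16.4%, 0.572% and 1.23% were lower in these comparisons, and in the brighter bins 8 to 10 the Mstn-null share was 31.0% to 43.6%, against which the counts of this and the following lists are to be read. Higher were 5062, 108 and 380 of the 19938 genes in the same order. Fbxo32, the ubiquitin ligase atrogin-1, was lower, at -1.02 ± 0.14 (SE, adjusted p = 3.02e-05) after 1 dose and -0.76 ± 0.14 (SE, adjusted p = 0.000926) after 4 doses, and its -0.31 in Mstn-null mice did not pass (adjusted p = 0.0593). Trim63, the ligase MuRF1, was lower, at -0.93 after 1 dose (adjusted p = 0.000609), -0.87 after 4 doses (adjusted p = 0.000708) and -0.60 in Mstn-null mice (adjusted p = 0.00215). The cyclin gene Ccng2 was lower, at -0.48 after 1 dose (adjusted p = 0.00755) and -0.56 in Mstn-null mice (adjusted p = 5.09e-05). Pdk4, which turns muscle from glucose to fat as fuel, was lower, at -1.01 in Mstn-null mice (adjusted p = 0.000105), and so were Cdkn1b at -0.47 and Sod2 at -0.48. With the array range in the fit, 1 of the 19 passed in Mstn-null mice.

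Of 6 known KLF15 targets, 3 were lower in Mstn-null mice, 1 after 1 dose and 4 after 4 doses, and 0 were higher. Prodh, which starts proline breakdown, was lower in all 3 comparisons, at -0.41 (adjusted p = 0.000155), -0.34 (adjusted p = 0.0252) and -0.48 (adjusted p = 0.000321). After 4 doses the glucose transporter gene Slc2a4 was lower, at -0.43 (adjusted p = 0.0145) and the alanine transaminase genes Gpt and Gpt2 were at -0.38 each (adjusted p = 0.0264 and 0.0309). Bcat2, which starts branched-chain amino acid breakdown, was lower, at -0.38 in Mstn-null mice (adjusted p = 0.00104). Gpt was also lower after 4 doses than after 1 dose (-0.44, adjusted p = 0.0422). Under quantile normalization 2 of the 6 were lower after 4 doses and 0 after 1 dose.

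In the wider autophagy machinery most calls came in Mstn-null mice, where the background was also highest. Of 30 genes that build the autophagosome, 14 were lower and 1 higher in Mstn-null mice, 0 in either direction after 1 dose, and 1 lower after 4 doses. The lower ones included Atg4a (-0.83, adjusted p = 0.000241), a protease that trims ATG8 proteins, Atg10 (-0.76, adjusted p = 0.000282) and Atg101 (-0.55, adjusted p = 0.000182), a part of the ULK1 complex. The 1 gene after 4 doses was Wdr45 (-0.27, adjusted p = 0.0398), which binds the lipid of the growing membrane. Of 13 selective autophagy receptors, 7 were lower and 2 higher in Mstn-null mice, among them the mitophagy receptors Bnip3l (-0.55, adjusted p = 0.00188) and Fundc1 (-0.76, adjusted p = 0.00288). After 4 doses Calcoco1 was lower (-0.31, adjusted p = 0.0434) and the glycogen-binding receptor gene Stbd1 higher (0.39, adjusted p = 0.0243), and after 1 dose 0 passed. Under quantile normalization 0 genes of both lists passed after 4 doses.

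Of 19 lysosome genes and their TFEB-family regulators, 6 were lower and 2 higher in Mstn-null mice and 0 passed after either dose. Without the narrow arrays the Mstn-null counts turned to 1 lower and 4 higher. The protease gene Ctsl was lower (-0.41, adjusted p = 0.00982), and Tfe3, a regulator of lysosome genes, was higher (0.27, adjusted p = 0.00664). Of 13 genes upstream of FoxO, a list that also held the FoxO factor gene Foxo6, 2 were lower and 4 higher in Mstn-null mice. Akt2, a kinase that inhibits FoxO factors, was at 0.35 (adjusted p = 0.00339) and Sirt1, a deacetylase of FoxO factors, at -0.40 (adjusted p = 0.00389). Foxo6 itself was higher, at 0.40 (adjusted p = 0.00872). After 4 doses Stk11, the kinase that activates AMPK, was lower (-0.36, adjusted p = 0.0268). Of 31 proteasome subunit genes, the known targets of Nfe2l1, 20 were lower and 0 higher in Mstn-null mice, led by Psma2 (-0.68, adjusted p = 1.92e-05), 0 passed after 1 dose, and Psmd8 alone was higher after 4 doses (0.34, adjusted p = 0.00231).

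The list counts depended on the scaling and on the narrow arrays. Under quantile normalization the Mstn-null counts were 8 lower and 4 higher for the autophagosome genes, 3 and 4 for the receptors, 1 and 5 for the lysosome genes, 1 and 8 for the genes upstream of FoxO, 8 and 2 for the FoxO targets, 2 and 0 for the KLF15 targets and 11 and 3 for the proteasome. With the array range in the fit, 0 or 1 gene of each list passed in Mstn-null mice. Without the narrow arrays their counts lower and higher were 11 and 0, 4 and 2, 1 and 4, 2 and 3, 9 and 1, 3 and 0, and 15 and 0 in the same order. After 4 doses the array range in the fit left 0 autophagosome genes lower and 1 higher, 0 receptors lower and 1 higher, 0 genes upstream of FoxO and 2 KLF15 targets lower. The FoxO target counts of 3 after 1 dose and 2 after 4 doses were the same under these 3 settings. The lists were chosen with earlier results of these data known.

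**Figure D5:**
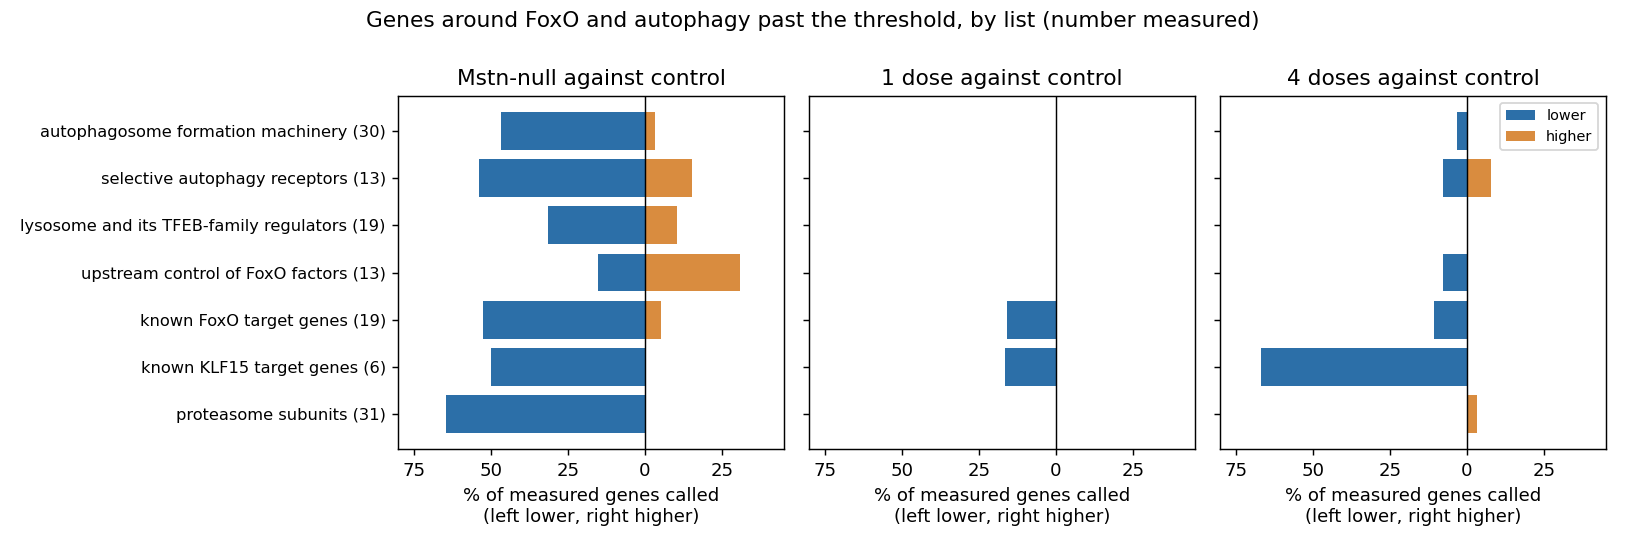
Share of the measured genes of 7 lists (number measured in brackets) that passed the test, lower to the left and higher to the right, on the deposited scale. Bars to the left dominate in Mstn-null mice except for the genes upstream of FoxO, and after 1 and 4 doses only the FoxO targets and KLF15 targets have more than 1 gene lower in any list.

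Marker genes of slow, oxidative fibres and of macrophages also differed between classes. Of 10 slow-fibre genes, 10 were lower in Mstn-null mice, 0 after 1 dose and 9 after 4 doses, with medians of -2.22, -0.93 and -1.49. Their mean log2 level in experiment 2 ran from 9.91 to 10.6 in controls, 6.77 to 9.38 in Mstn-null mice, 7.75 to 10.5 after 1 dose and 7.74 to 9.57 after 4 doses. Of 14 macrophage genes 6 were higher in Mstn-null mice, 0 after 1 dose and 7 after 4 doses, led by Laptm5 (0.66 and 0.67), with medians of 0.25, 0.34 and 0.48, and their mean level in experiment 2 ran from 6.27 to 6.56 in controls, 6.59 to 7.25 in Mstn-null mice, 6.56 to 7.18 after 1 dose and 6.997 to 7.25 after 4 doses. In experiment 1 the macrophage mean ran from 4.50 to 5.11 in controls, 4.57 to 4.84 in Mstn-null mice and 4.87 to 5.08 after 4 doses, inside the control range. The macrophage median was thus no smaller after 1 dose, where 0 of its genes passed, than in Mstn-null mice. Beside these counts, 5062 of all 19938 genes were higher in Mstn-null mice, 108 after 1 dose and 380 after 4 doses. By bin of mean level, the Mstn-null number higher ran from 168 of 1994 genes in bin 10 to 878 of 1994 in bin 4. The part of either list in the results for the 10 genes was not tested. In controls of experiment 2 the dimmest macrophage gene, Cd14, was at 5.53, above the lower quartile of all genes at 5.19.

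For each gene that passed against control, the genes of most similar pattern were taken as those with the smallest mean absolute difference of log2 values over the 35 arrays, each centred within its experiment. Each distance is to be read against the gene's own mean absolute deviation from its experiment mean. Klf15, with a deviation of 0.17, was closest to Spns2 (0.12), Gpt2 (0.13) and Prodh (0.13), of which Gpt2 and Prodh are on the KLF15 target list. For Foxo1, with a deviation of 0.46, the closest genes named here were Fkbp5 (0.21), a glucocorticoid-responsive gene, Slc7a8 and Galnt15, and 1 closer gene is not named. Gabarapl1 (deviation 0.28) was closest to Klf9 (0.15), H2az2 and Pcca. Bnip3 (deviation 0.33) was closest to Acot13 (0.11), Prxl2c and Coq3, and Nfe2l1 (deviation 0.22) to Ilrun (0.09) and the mitochondrial genes Sdha (0.09) and Vdac1 (0.10). Foxo4 (deviation 0.32) was closest to Mob2 (0.11), Ahsa1 and Mmab, and Map1lc3b (deviation 0.16) to Elof1 (0.10), Pomgnt1 and Sqor. These distances are descriptions over arrays that share classes and array range.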

How the data were processed

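Quadriceps RNA of 35 mice was measured on 1 array each. The authors' deposited table holds log2 values of 35556 rows, and per the submitters' processing notes RMA, limma 3.4.4 and R 2.11.1 were used (the sources used here do not say whether both experiments were normalized jointly). RMA sets probe intensities, and not the row values summarized from them, to 1 distribution, and the deposited arrays differed in range. Of the rows, 21789 had 1 annotated symbol, 1621 several and 12146 none; only the first were used, and for the 999 genes with several rows the row of highest mean, giving 19938 genes. The annotation can be old; 21698 rows matched the RefSeq gene table of GRCm38.p6.

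Values of all arrays were fitted in limma 3.58.1 (R 4.3.3) with class and experiment as terms and a constant prior variance, and p-values were Benjamini-Hochberg adjusted over all genes at a threshold of 0.05. A fit with 8 groups tested differences between experiments. The samples are labelled biological replicates, and 2 arrays of a group correlated at 0.954 to 0.996. Depth has no meaning for arrays; their number limits the precision. The scripts were tested on simulated data, and 11 alternatives were planned. Named were all 10 genes, up to 4 genes of smallest p per list and comparison, the 3 genes most like each called gene, and Mstn as the genotype check; genes named outside this rule (Fbxo32 in Mstn-null mice among them) were named to set them beside the other classes. The 10 genes and the lists were chosen with earlier results of these data known.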

Additional observations from a re-analysis of the deposited data

Results flagged for a closer look

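In 4 of the 40 gene and class groups of 4 to 10 mice, 1 mouse lay farther from the rest than Dixon's 95% critical value allows; chance flags about 1 in 20 groups. Klf15 in Mstn-null replicate 7 of experiment 2 was at 8.35, below the other 7 mice at 8.69 to 8.93. Gabarapl1 in Mstn-null replicate 5 of experiment 2 was at 8.17, above the others at 7.11 to 7.58. Bnip3 in 1-dose replicate 4 of experiment 2 was at 11.1, above the others, which lay from 10.99 to 11.01. Sqstm1 in Mstn-null replicate 6 of experiment 2 was at 11.4, below the others at 11.7 to 11.8.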

How the results depend on the processing

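Counts of the 10 genes that passed moved by more than 1.5 times as follows, each with the number of all 19938 genes that passed in brackets. In Mstn-null mice against control (6; all 8337) 2 passed with the array range over genes in the fit (596), 0 with the range over all deposited rows (295), chosen after seeing the data, and 2 in experiment 1 alone (477). After 1 dose (1; all 222) 0 passed under quantile normalization (194), 0 in experiment 2 alone (246), 7 with array weights (1743) and 2 without the 3 narrow Mstn-null arrays (279), a setting chosen after seeing the data. The array weights stopped short of convergence in 1 fit. After 4 doses (2; all 626) 0 passed in experiment 1 alone (53) and 4 without those arrays (743). Between 4 doses and 1 dose (0; all 64) 1 passed with either range (135 and 154), 1 in experiment 1 alone (48) and 2 with array weights (437). Between 4 doses and Mstn-null (3; all 4019) 0 passed with either range (394 and 203), 0 in experiment 1 alone (3), 6 in experiment 2 alone (5716) and 1 without the 3 narrow arrays (1617). Between 1 dose and Mstn-null (5; all 3354) 1 passed with the range over genes (501), 0 with that over all rows (91) and 1 in experiment 1 alone (400). The difference between experiments (0; all 334 in Mstn-null mice and 1 after 4 doses) passed for 2 genes in Mstn-null mice with array weights (1501) and 2 with the range over all rows (1647), and for 5 after 4 doses with array weights (1612). Map1lc3b in Mstn-null mice turned from -0.25 to 0.0933 (adjusted p = 0.681) in experiment 1 alone. Leaving out 1 array at a time gave 5 to 7 genes in Mstn-null mice, 0 to 3 after 1 dose, 2 to 3 after 4 doses, 0 to 1 between doses, 2 to 6 and 5 to 7 for 4 doses and 1 dose against Mstn-null, and 0 to 2, 0 to 0 and 0 to 0 for the difference between experiments in Mstn-null, 1-dose and 4-dose mice. The 3 genes after 1 dose came without control replicate 2 of experiment 1. The cause of these shifts was not tested. Same-numbered mice of an experiment correlated above 0.1 in 18 of 48 pairs (r from -0.60 to 0.41). All 3 pairs did so, each best with its own number, for 1 dose against control in experiment 1 (0.104 to 0.336), but 1 of 5 did in experiment 2, so the numbers were not taken to pair samples. With the replicate block, in which Mstn-null replicates 6 to 8 have no partner, 1 gene in place of 3 passed between 4 doses and Mstn-null. In Mstn-null mice against control Klf15 and Map1lc3b no longer passed and Foxo1 did, between 1 dose and Mstn-null Foxo3 and Foxo4 no longer passed and Ulk1 did, and after 4 doses Nfe2l1 also passed.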

Other observations

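Markers of other cells of muscle were measured on the same arrays. Their counts are to be read beside the shares of all genes given above. Of 10 endothelial genes 5 were lower in Mstn-null mice, led by Egfl7 (-0.68, limma adjusted p = 3.12e-05) and Pecam1 (-0.59, adjusted p = 0.000246), 0 after 1 dose and 1, Flt1, after 4 doses (-0.40, adjusted p = 0.0223). Of 6 adipocyte genes 1, the fatty acid carrier gene Fabp4, was lower in Mstn-null mice (-1.51, adjusted p = 7.15e-05), and 0 passed after either dose. Of 6 fibroblast genes Dpt was lower in Mstn-null mice (-0.40, adjusted p = 0.0352) and the collagen gene Col3a1 higher after 4 doses (0.74, adjusted p = 0.00705). Of 2 erythroid genes Slc4a1 was higher in Mstn-null mice (0.22, adjusted p = 0.0398).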
